A study of Mus musculus with 14 samples.

Results

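The genes described here are 10 secreted glycoproteins of the extracellular matrix: fibronectin (Fn1), tenascin C (Tnc), osteonectin (Sparc), thrombospondin 1 (Thbs1), the fibulins Fbln1, Fbln2, Fbln5 and Efemp1 (fibulin 3), periostin (Postn) and osteopontin (Spp1). They were chosen by symbol, as a family, with earlier results of these data known, and all 10 were found among the 35275 genes of the table. Their mRNA was measured by RNA sequencing in 14 samples of murine KMF ovarian tumour cells, a line derived from ID8 cells of C57Bl6 mice by passage in vivo, and given as FPKM (fragments mapped to the gene, scaled by its length and by the depth of the library). Every sample was a culture of tumorspheres, the cell clusters that form on non-adherent plates, after 5 days in serum-free PromoCell XF medium. There were 3 samples of parental KMF cells and 3 of KT13 FAK KO cells, a single clone in which CRISPR editing of exon 4 of Ptk2 removed the focal adhesion kinase FAK. The remaining lines were made from that clone, so all of them carry its edited Ptk2 alleles: FAK-WT cells (n = 3) re-express GFP-FAK from a lentivirus, FAK-R454 cells (n = 2) re-express a kinase-inactive GFP-FAK in the same way, and β-catenin ΔGSK cells (n = 3) express from a retrovirus an active β-catenin that lacks the GSK3β sites. These 3 lines were drug-selected and enriched by flow cytometry, and because KT13 is 1 clone, a difference between KMF and FAK KO cells also holds what distinguishes 1 clone from its parental population. The comparisons ask which of these genes differ once FAK is re-expressed and which differ between FAK-WT and FAK-R454 cells. They also ask which change when active β-catenin is supplied without FAK. No line of the clone with an empty vector is among the 14 samples. Against FAK KO cells, effects of transduction, selection and sorting therefore cannot be told apart from those of the construct.

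Fibronectin is a large dimeric glycoprotein that cells assemble into fibrils through integrin α5β1, and integrin engagement by fibronectin is a textbook route to FAK activation. Tenascin C, thrombospondin 1, SPARC, periostin and osteopontin are called matricellular, because they are deposited in the matrix but act more on cell adhesion and signalling than as structural parts. The fibulins carry calcium-binding EGF-like repeats and a shared C-terminal domain, bind fibronectin, elastin or basement membrane proteins, and serve as bridges between matrix fibres. Several of these proteins are known from ovarian carcinoma, where peritoneal fluid holds tumour cells as floating clusters that meet a matrix rich in fibronectin.

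Between 25390558 and 35289859 fragments per library fell on genes. Ptk2 mRNA was between 17.6 and 20.5 FPKM in the 3 FAK KO samples, between 23.9 and 24.8 FPKM in KMF, between 42.3 and 45.4 FPKM in FAK-WT, 59.2 and 65.5 FPKM in FAK-R454 and between 15.1 and 15.9 FPKM in β-catenin ΔGSK samples. These values cover the whole gene, so they show the re-expressed constructs but do not check the edit itself. Ctnnb1 was between 207 and 223 FPKM in β-catenin ΔGSK samples and between 140 and 148 FPKM in FAK KO samples. It was between 195 and 207 FPKM in KMF, between 127 and 130 FPKM in FAK-WT and 133 and 139 FPKM in FAK-R454 samples. Between KMF and β-catenin ΔGSK cells its difference did not pass (log2 -0.10, adjusted p = 0.228 from limma). Of 10 markers of the ovarian surface epithelium, Krt8, Krt18, Krt19, Msln, Wt1 and Upk3b were present in every line, whereas Krt7, Cdh1, Epcam and Pax8 were under 1 FPKM in all samples. Of 7 macrophage markers, Ptprc, Emr1, Csf1r, Lyz2 and Itgam were under 1 FPKM in all samples, whereas Cd68 and Cd14 were present in every line. The summed level of the 7 ran from 7.59 to 8.14 FPKM in KMF, from 6.85 to 6.99 FPKM in FAK KO, from 11.6 to 16.7 FPKM in FAK-WT, from 8.77 to 9.10 FPKM in FAK-R454 and from 4.04 to 5.23 FPKM in β-catenin ΔGSK samples. Of 5 endothelial markers, Cdh5, Kdr and Emcn were under 1 FPKM in all samples, and the sum, nearly all of it Tek, ran from 29.6 to 29.96 FPKM in KMF, from 17.2 to 19.3 FPKM in FAK KO, FAK-WT and FAK-R454 and from 6.58 to 7.44 FPKM in β-catenin ΔGSK samples. Of 9 fibroblast markers, Col1a2, Pdgfrb, Lum, Thy1 and Fap were under 1 FPKM in all samples, and Dcn, Col3a1, Pdgfra and Col1a1 made up the list's sum, to which Dcn gave most outside KMF cells. That sum ran from 81.1 to 101 FPKM in KMF, from 96.7 to 136 FPKM in FAK KO, from 156 to 185 FPKM in FAK-WT, from 146 to 158 FPKM in FAK-R454 and from 31.1 to 45.4 FPKM in β-catenin ΔGSK samples, the same order of lines as that of Efemp1. The part of these marker genes in the results below was not tested. The third FAK-WT library stood farthest from the other libraries of its line, with a root-mean-square log2 distance of 0.300, against 0.187 to 0.272 in the remaining 13 libraries. In bulk RNA, fewer cells that express a gene and less mRNA per cell cannot be told apart.

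The 10 genes spanned the whole range of expression. Sparc and Spp1 were among the most abundant mRNAs of the tumorspheres: Sparc ranked between 24 and 86 of all genes in every sample, and Spp1 ranked between 27 and 98 in every sample except those of β-catenin ΔGSK cells, where it ranked between 2146 and 2540. Fn1 and, outside β-catenin ΔGSK cells, Fbln2 came next, Efemp1 lay between 13.9 and 37.8 FPKM, and Tnc, Thbs1 and Fbln1 between 1.09 and 20.6 FPKM. Fbln5 stayed under 0.5 FPKM, and Postn, which encodes periostin, had 0 or 1 fragment in each library (at most 0.00855 FPKM). Hence 8 of the 10 genes could be tested, each with a mean FPKM above 1 in at least 1 line of every comparison.

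**Figure D1:**
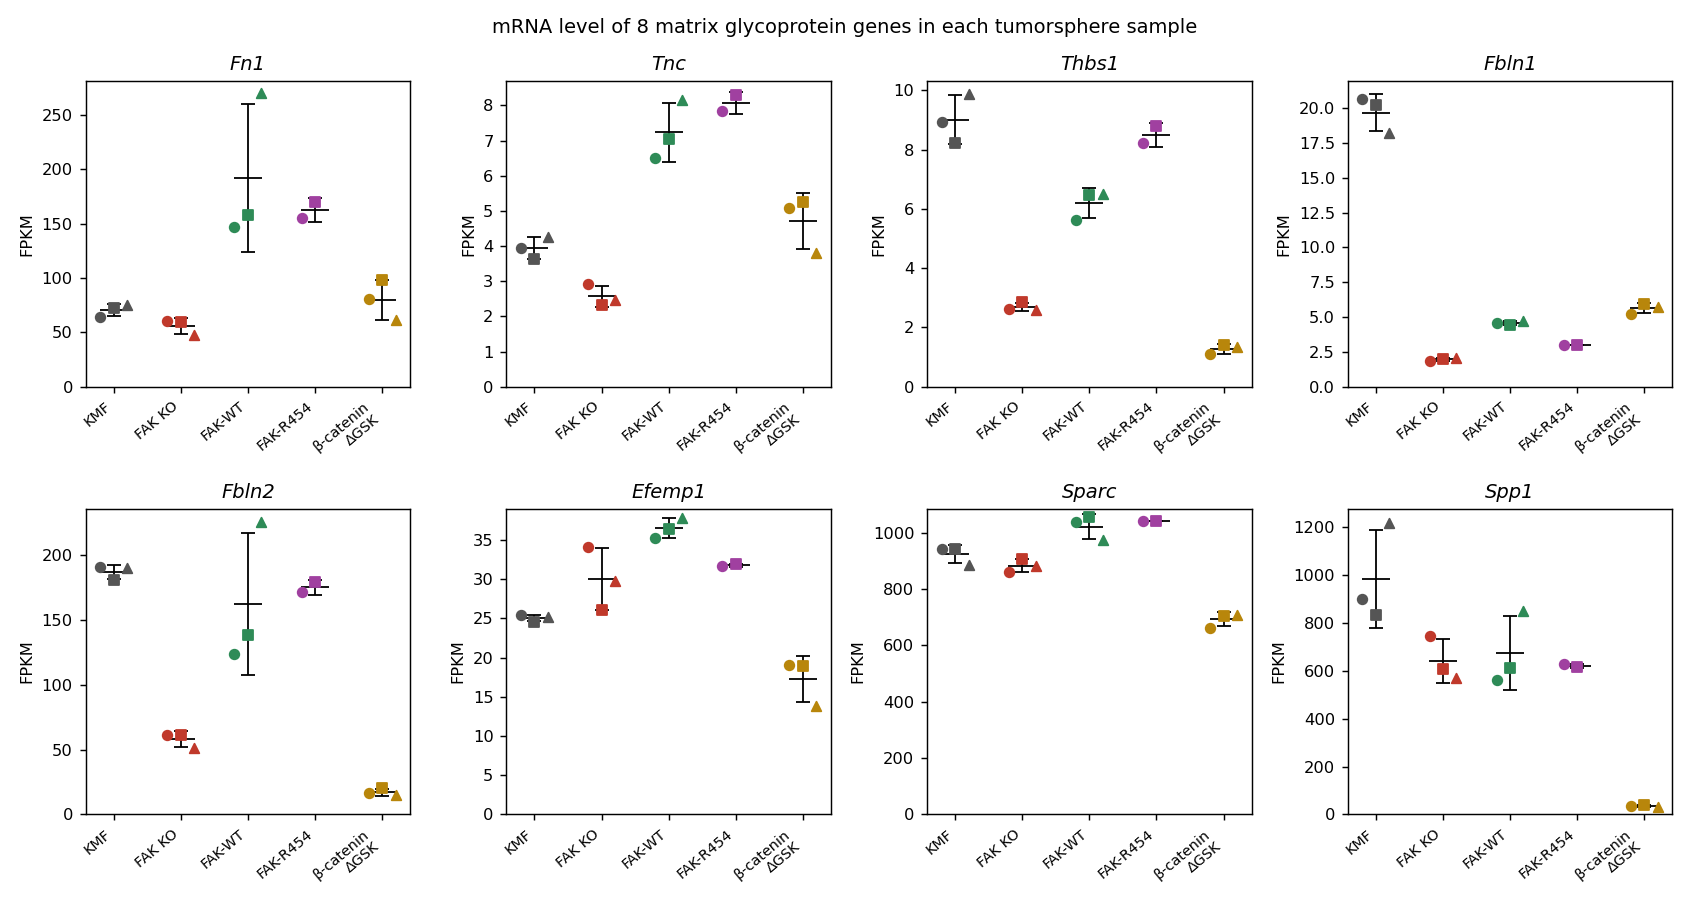
FPKM (linear axes from 0) of the 8 expressed genes in each tumorsphere sample; circles, squares and triangles are replicates 1, 2 and 3, and horizontal bars with whiskers are the mean ± SD of a line. FAK KO samples lie at 47.3 to 60.7 FPKM for Fn1 and FAK-WT samples at 147 to 270.0 FPKM, while Spp1 lies at 32.3 to 38.0 FPKM in β-catenin ΔGSK samples and at 560.2 FPKM or more in all others.

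Fn1 (ENSMUSG00000026193; minus strand of chromosome 1, 71585520 to 71653200) encodes fibronectin. Its level was 60.7, 59.1 and 47.3 FPKM in the FAK KO samples and 147, 158 and 270.0 FPKM in the FAK-WT samples. It was 155 and 170.2 FPKM in the FAK-R454 samples, 64.2, 72.8 and 75.0 FPKM in the KMF samples, and 80.3, 97.8 and 61.6 FPKM in the β-catenin ΔGSK samples. Every FAK-WT and FAK-R454 sample was thus above every sample of the other lines, and the third FAK-WT library stood above its companions. KMF cells, in which FAK was never removed, held less Fn1 mRNA than both re-expressing lines, by 1.39 on the log2 scale against FAK-WT (standard error 0.22, adjusted p = 0.00226 from limma) and by 1.20 against FAK-R454 (standard error 0.08, adjusted p = 1.33e-04 from limma).

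Tnc (ENSMUSG00000028364; minus strand of chromosome 4, 63959785 to 64047015) encodes tenascin C, a hexameric glycoprotein that binds fibronectin and is best known from wounds and tumour stroma. It was the gene nearest to Fn1 in its pattern over the 14 samples. FAK KO samples held 2.91, 2.32 and 2.48 FPKM, those of FAK-WT 6.497, 7.05 and 8.14 FPKM, and those of FAK-R454 7.85 and 8.29 FPKM. KMF samples held 3.96, 3.63 and 4.26 FPKM and β-catenin ΔGSK samples 5.09, 5.27 and 3.81 FPKM. FAK KO samples were below all others, and the 2 re-expressing lines above all others.

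Thbs1 (ENSMUSG00000040152; plus strand of chromosome 2, 118111876 to 118127133) encodes thrombospondin 1, which restrains angiogenesis and can release active TGFβ from its latent complex. It was 8.94, 8.21 and 9.87 FPKM in KMF samples and 2.61, 2.85 and 2.59 FPKM in FAK KO samples. It was 5.61, 6.46 and 6.51 FPKM in FAK-WT and 8.21 and 8.78 FPKM in FAK-R454 samples, whereas β-catenin ΔGSK samples held 1.09, 1.41 and 1.33 FPKM. β-catenin ΔGSK samples were below FAK KO samples, and FAK-WT samples lay between FAK KO and KMF samples without overlap.

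Fbln2 (ENSMUSG00000064080; plus strand of chromosome 6, 91212455 to 91272540) encodes fibulin 2, which binds fibronectin and basement membrane proteins. It had the same order as Thbs1 at a higher level. KMF samples held 191, 181 and 189.8 FPKM, FAK KO samples 61.6, 61.6 and 51.2 FPKM, FAK-WT samples 123, 138 and 225 FPKM, FAK-R454 samples 171 and 179 FPKM, and β-catenin ΔGSK samples 16.4, 20.02 and 14.6 FPKM. The third FAK-WT library again stood above its companions, and without it FAK-WT samples were below all KMF and FAK-R454 samples. From KMF to β-catenin ΔGSK cells Fbln2 differed 11.0-fold (log2 3.46, standard error 0.11, adjusted p = 5.04e-08 from limma).

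Fbln1 (ENSMUSG00000006369; plus strand of chromosome 15, 85205949 to 85286535) encodes fibulin 1, which also binds fibronectin. Its pattern differed from those of the other genes of the family. KMF samples held 20.6, 20.2 and 18.2 FPKM and FAK KO samples 1.85, 1.99 and 2.06 FPKM. FAK-WT samples held 4.59, 4.40 and 4.71 FPKM, FAK-R454 samples 3.01 and 2.97 FPKM, and β-catenin ΔGSK samples 5.23, 5.96 and 5.70 FPKM. No values of any line overlapped those of another, and no line made from the knockout clone came near the parental level: the highest of these values was 5.96 FPKM, against 18.2 FPKM in the lowest KMF sample.

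Efemp1 (ENSMUSG00000020467; plus strand of chromosome 11, 28853204 to 28926743), which encodes fibulin 3, and Sparc (ENSMUSG00000018593; minus strand of chromosome 11, 55394500 to 55420080), which encodes a collagen-binding glycoprotein, moved least. For Efemp1, KMF samples held 25.4, 24.6 and 25.2 FPKM, FAK KO samples 34.1, 26.1 and 29.8 FPKM, FAK-WT samples 35.2, 36.4 and 37.8 FPKM, FAK-R454 samples 31.6 and 31.9 FPKM, and β-catenin ΔGSK samples 19.0, 19.0 and 13.9 FPKM. For Sparc, KMF samples held 942, 944 and 887 FPKM, FAK KO samples 863, 908 and 881 FPKM, FAK-WT samples 1038, 1055 and 974 FPKM, FAK-R454 samples 1042 and 1041 FPKM, and β-catenin ΔGSK samples 664, 706 and 709 FPKM. For both genes the β-catenin ΔGSK samples were the lowest and did not overlap any other line.

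Spp1 (ENSMUSG00000029304; plus strand of chromosome 5, 104435118 to 104441050) encodes osteopontin, a phosphoprotein that binds integrins through an RGD motif and binds CD44. It was 899.98, 834 and 1218 FPKM in KMF samples and 746, 608 and 570.1 FPKM in FAK KO samples. FAK-WT samples held 560.2, 612 and 849 FPKM and FAK-R454 samples 627 and 615 FPKM, which overlapped or lay within the range of the FAK KO samples. In β-catenin ΔGSK samples Spp1 was 35.2, 38.0 and 32.3 FPKM, far below every other sample.

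Fbln5 (ENSMUSG00000021186; minus strand of chromosome 12, 101746565 to 101819055) encodes fibulin 5, which is needed for elastic fibre assembly. It was barely present: 6 fragments were counted over the 3 KMF libraries, 16 over the 3 FAK KO, 29 over the 3 FAK-WT and 3 over the 3 β-catenin ΔGSK libraries. The 2 FAK-R454 libraries held 132 fragments, or 0.432 and 0.336 FPKM, and did not overlap any other line, where the highest value was 0.0767 FPKM. Fbln5 did not reach the expression filter. When the filter was dropped, limma gave a log2 fold change of 1.86 for FAK-R454 over FAK KO cells (standard error 0.22, adjusted p = 0.00902), and one of -1.62 for FAK-WT against FAK-R454 cells (adjusted p = 0.0342). Postn (ENSMUSG00000027750; plus strand of chromosome 3, 54361109 to 54391034) was not detectable at this depth in any line.

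Fragments of a gene and of an overlapping gene cannot be told apart where the counting ignored strand, which is not given in the sources used here. Apol7d overlaps Fn1 on the other strand and was listed between 0.0901 and 0.507 FPKM, and 8030451A03Rik overlaps Tnc on the other strand and was at most 0.33 FPKM. Both were far below the gene they overlap. Gm29233 overlaps Thbs1 on the other strand and Gm42793 overlaps Spp1 on the same strand, where counting by strand would not separate them, and their levels were not analysed here.

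For each gene the lines were ordered by mean FPKM, and neighbours in that order were compared with limma at an adjusted p of 0.05. Of the 32 steps over the 8 tested genes, 16 differed. All 4 steps differed for Fbln1, from KMF through β-catenin ΔGSK, FAK-WT and FAK-R454 down to FAK KO. For Thbs1 the order was KMF, FAK-R454, FAK-WT, FAK KO and β-catenin ΔGSK, and only KMF and FAK-R454 did not differ beyond their spread (log2 difference 0.08, 95% interval -0.14 to 0.30). For Fn1 the order was FAK-WT, FAK-R454, β-catenin ΔGSK, KMF and FAK KO. The steps from FAK-R454 to β-catenin ΔGSK and from KMF to FAK KO differed, and those between the 2 re-expressing lines and between β-catenin ΔGSK and KMF did not pass. For Tnc the order differed only in that FAK-R454 stood ahead of FAK-WT, and the second and the fourth step again passed. For Fbln2 the order was that of Thbs1, and the steps from FAK-WT to FAK KO and on to β-catenin ΔGSK passed. For Sparc, Efemp1 and Spp1 a single step passed, the one that led down to β-catenin ΔGSK cells. The shares of all tested genes that differed at any fold between the lines compared only in these orders were 41.6% for KMF and FAK-WT, 43.6% for KMF and FAK-R454, 56.9% for KMF and β-catenin ΔGSK, 50.8% for FAK-WT and β-catenin ΔGSK and 49.0% for FAK-R454 and β-catenin ΔGSK cells. For lines also compared below, the shares were 40.8% for FAK-WT and FAK KO and 19.7% for FAK-R454 and FAK KO cells. They were 58.1% for β-catenin ΔGSK and FAK KO, 51.8% for KMF and FAK KO and 7.82% for FAK-WT and FAK-R454 cells. The orders were set by the same means, so the count of differing steps is a description.

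Each line was next compared with FAK KO cells. These 4 comparisons share the 3 FAK KO samples, so they are given side by side and are not independent. A gene was called when its Benjamini-Hochberg adjusted p from limma was under 0.05, it differed at least 2-fold and the line with the higher level had a mean above 1 FPKM. Fold changes were taken from log2(FPKM + 0.1), so those of low genes are understated. In FAK-WT cells, 5 of the 8 tested genes were called higher than in FAK KO cells, which compares with 2.91% of all 11841 genes tested (1.71% were called lower). Fn1 rose most, by 1.73 on the log2 scale or 3.33-fold (standard error 0.21, adjusted p = 6.77e-04). Tnc rose by 1.46 (2.75-fold, standard error 0.12), Fbln2 by 1.43 (2.70-fold, standard error 0.20), Thbs1 by 1.18 (2.26-fold, standard error 0.10) and Fbln1 by 1.17 (2.26-fold, standard error 0.10), with adjusted p between 1.21e-04 and 0.00124 from limma. At any fold 7 of 8 passed as higher, against 15.6% of all genes (25.2% were lower at any fold). Sparc and Efemp1, the additional genes, were higher by 0.21 and 0.29 on the log2 scale (adjusted p = 0.0465 and 0.0395 from limma), and each no longer passed in 7 of 15 alternatives. For Sparc, leaving out any 1 FAK KO sample or FAK-WT replicate 1 or 2 gave an adjusted p between 0.053 and 0.184. For Efemp1, leaving out FAK KO replicate 2 or 3 or any 1 FAK-WT sample gave an adjusted p between 0.0631 and 0.107. Spp1 was 0.06 higher (95% interval -0.31 to 0.42, adjusted p = 0.793). The median log2 fold change over the 8 genes was 1.18, and over all genes tested -0.08. Of the 4 fibroblast markers tested in the same samples, 3 were called higher, Col1a1 (log2 2.70), Col3a1 (log2 2.36) and Pdgfra (log2 1.72), with a median of 2.04, and Dcn did not pass (log2 0.20). The macrophage marker Cd68 was called higher too, at 8.62 against 2.99 FPKM (log2 1.44, adjusted p = 0.00157 from limma), and Cd14 passed as higher at any fold (log2 0.34). Of the 6 surface epithelium markers tested, none was called, but 5 passed as higher at any fold, Upk3b (log2 0.87), Krt8 (log2 0.84), Krt18 (log2 0.79), Msln (log2 0.47) and Krt19 (log2 0.37), and the median was 0.63.

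In FAK-R454 cells, which carry kinase-inactive FAK, 4 of the 8 genes were called higher than in FAK KO cells, compared with 1.93% of all 11818 genes tested (0.812% were called lower). Thbs1 rose by 1.63 (3.09-fold, standard error 0.10), Tnc by 1.62 (3.08-fold, standard error 0.12), Fbln2 by 1.60 (3.02-fold, standard error 0.09) and Fn1 by 1.55 on the log2 scale (2.93-fold, standard error 0.11), with adjusted p between 5.72e-05 and 1.42e-04 from limma. At any fold 6 of 8 were higher, against 9.78% of all genes (9.89% lower). Fbln1 was 0.58 higher (standard error 0.12, adjusted p = 0.0132), and Sparc 0.24 higher (standard error 0.06, adjusted p = 0.0312 from limma). Leaving out either FAK-R454 library raised the adjusted p of Fbln1 to 0.115 or 0.137, and that of Sparc to 0.206 or 0.242, and without FAK KO replicate 3 it was 0.109 for Sparc. Efemp1 and Spp1 had log2 fold changes of 0.09 (95% interval -0.15 to 0.33) and -0.04 (-0.28 to 0.21). The median over the 8 genes was 1.07, and over all genes -0.03. Beside them, Col1a1 (log2 2.86), Col3a1 (log2 1.79) and Pdgfra (log2 1.53) were called higher, the median of the 4 fibroblast markers was 1.66, and Dcn did not pass (log2 0.14). Upk3b, a marker of surface epithelium, was called higher as well, from 4.03 to 31.6 FPKM (log2 2.96, adjusted p = 4.30e-05 from limma), while the median of the 6 surface epithelium markers was 0.18. Wt1 (log2 0.22, adjusted p = 0.0412) and the macrophage marker Cd68 (log2 0.51, adjusted p = 0.0127 from limma) passed as higher at any fold.

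Compared directly, none of the 8 genes was called between FAK-WT and FAK-R454 cells by limma, which called 0.696% of 11782 genes higher and 0.747% lower in FAK-WT cells. None was called by limma-voom on the recovered fragments either, which called 1.66% of all genes in either direction. At an unadjusted p of 0.05, 3 of the 8 genes differed, as did 26.9% of all genes tested. At any fold 1 gene was higher and 1 lower in FAK-WT cells (3.38% and 4.44% of all genes). Fbln1 was higher in FAK-WT by 0.59 on the log2 scale (1.51-fold, standard error 0.08, adjusted p = 0.0142 from limma), and Thbs1 was lower at -0.45 on that scale (standard error 0.09, adjusted p = 0.0374 from limma). Fbln1 no longer passed without either FAK-R454 library or without FAK-WT replicate 2, with an adjusted p between 0.0618 and 0.166. Thbs1 no longer passed without either FAK-R454 library or without FAK-WT replicate 1 or 2, with an adjusted p between 0.0713 and 0.286, nor with 4 of the other settings (no expression filter, median-of-ratios scaling, no variance trend or each chromosome centred), where it ran from 0.0506 to 0.0869. For Fn1 the difference was 0.18, with a 95% interval from -0.45 to 0.81, so these samples leave room for a difference of either sign. Without the third FAK-WT library, Fbln2 and Tnc passed as lower in FAK-WT cells than in those with FAK-R454, with log2 fold changes of -0.42 (adjusted p = 0.00137 from limma) and -0.25 (adjusted p = 0.0322 from limma), and Efemp1 as higher by 0.17 (adjusted p = 0.0167 from limma). With that library their values were -0.16 (95% interval -0.76 to 0.44), -0.16 (-0.42 to 0.09) and 0.20 (0.08 to 0.32), and their adjusted p from limma ran from 0.069 to 0.703. FAK-R454 cells also held more Ptk2 mRNA than FAK-WT cells (log2 of FAK-WT over FAK-R454 -0.52, standard error 0.06, adjusted p = 0.0121 from limma), and the part of construct level in these differences was not tested. Of the 4 fibroblast markers, Col3a1 passed as higher in FAK-WT cells (log2 0.57, adjusted p = 0.024 from limma) and 3 did not pass. Of the 6 surface epithelium markers, 4 passed as higher and Upk3b as lower, with values given below beside the elastic-fibre genes.

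**Figure D2:**
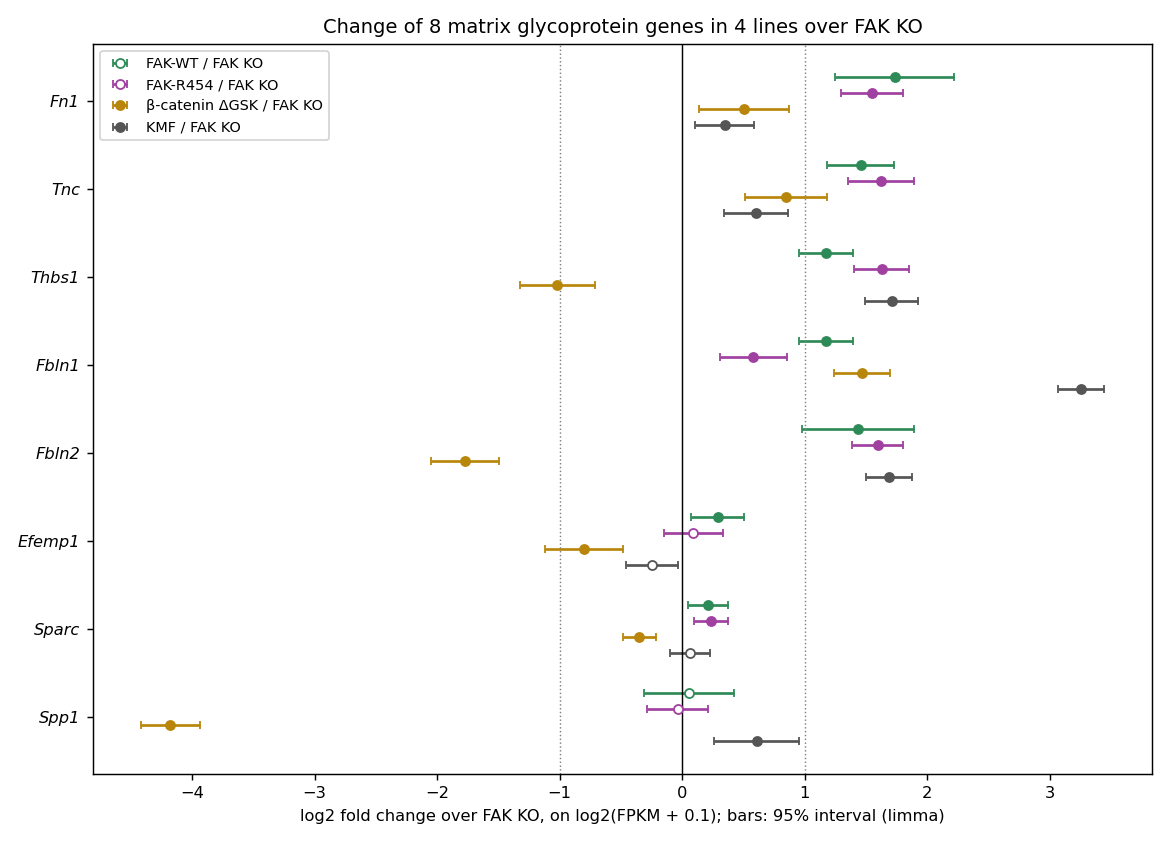
Log2 fold change over FAK KO cells (x axis, on log2(FPKM + 0.1)) of the 8 tested genes in FAK-WT, FAK-R454, β-catenin ΔGSK and KMF cells; points are limma estimates, bars their 95% intervals, filled points pass an adjusted p of 0.05 and dotted lines mark 2-fold. Fn1, Tnc, Thbs1 and Fbln2 lie beyond 2-fold in both FAK-re-expressing lines, and β-catenin ΔGSK cells lie below 0 for Thbs1, Fbln2, Efemp1, Sparc and Spp1, the last at -4.18.

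In β-catenin ΔGSK cells the family split. Against FAK KO cells, 1 of the 8 genes was called higher and 3 lower, where 5.13% and 6.99% of all 11915 genes tested were called higher and lower. Spp1 fell by 4.18 on the log2 scale, or 18.1-fold (standard error 0.11, adjusted p = 1.88e-08 from limma). Fbln2 fell by 1.77 (3.42-fold, standard error 0.12, adjusted p = 5.50e-06) and Thbs1 by 1.02 (2.03-fold, standard error 0.14, adjusted p = 2.72e-04 from limma). Fbln1 rose by 1.47 (2.77-fold, standard error 0.10, adjusted p = 5.48e-06 from limma). At any fold 3 genes were higher and 5 lower, against 23.7% and 34.4% of all genes: Tnc rose by 0.85 (standard error 0.15) and Fn1 by 0.50 (1.42-fold, standard error 0.16), whereas Efemp1 fell by 0.80 (1.74-fold, standard error 0.14) and Sparc by 0.35 (1.28-fold, standard error 0.06). The adjusted p of these 4 genes lay between 0.00111 and 0.0257 from limma. The fall of Thbs1 was under 2-fold without β-catenin ΔGSK replicate 1 (log2 -0.92) or FAK KO replicate 2 (log2 -0.98). The adjusted p of Fn1 was 0.0903 without FAK KO replicate 3 and 0.0827 without β-catenin ΔGSK replicate 2. Fbln1, Fbln2 and Efemp1 had all passed as higher with FAK-WT, whereas here Fbln1 was higher and Fbln2 and Efemp1 lower. The median over the 8 genes was -0.58, and over all genes -0.09. In the same samples 4 of the 9 fibroblast markers could be tested, and all 4 were called lower, Col3a1 (log2 -4.28), Col1a1 (log2 -2.28), Pdgfra (log2 -1.77) and Dcn (log2 -1.36), the first 3 of which had a mean above 1 FPKM in only 1 of the lines compared, FAK KO. Cd68 (log2 -1.16) and the endothelial markers Tek (log2 -1.35) and Pecam1 (log2 -1.58) were called lower too, though of the lines compared Pecam1 had a mean above 1 FPKM in FAK KO cells alone, and it did not reach the filter without FAK KO replicate 1 or 2. Cd14 passed as lower at any fold (log2 -0.30). Of the 6 surface epithelium markers, Wt1 (log2 1.21) and Upk3b (log2 1.12, and 0.99 without FAK KO replicate 3) were called higher, Krt19 passed as higher (log2 0.55) and Krt8 and Msln as lower (log2 -0.81 and -0.55), with a median of 0.25.

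The sequence before the start site is shown for Spp1, Fbln1 and Tnc, since Spp1 had the largest fall with active β-catenin, Fbln1 was the gene called higher there and Tnc passed as higher in every line. Each run is the 250 bases upstream of the RefSeq start site (GRCm38.p6), 5′ to 3′ on the strand of the gene. The places are chr5:104434861-104435110 on the plus strand for Spp1, chr15:85205699-85205948 on the plus strand for Fbln1 and chr4:64047016-64047265 on the minus strand for Tnc.
Spp1: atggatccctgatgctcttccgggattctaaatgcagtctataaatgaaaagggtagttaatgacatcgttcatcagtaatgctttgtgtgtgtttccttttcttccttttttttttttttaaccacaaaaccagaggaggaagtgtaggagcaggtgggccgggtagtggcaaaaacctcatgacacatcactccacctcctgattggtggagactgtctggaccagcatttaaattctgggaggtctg
Fbln1: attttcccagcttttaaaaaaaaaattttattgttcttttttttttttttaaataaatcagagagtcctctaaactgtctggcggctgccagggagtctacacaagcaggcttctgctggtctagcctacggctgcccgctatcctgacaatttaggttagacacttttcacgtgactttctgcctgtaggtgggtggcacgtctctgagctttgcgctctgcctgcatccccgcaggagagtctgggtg
Tnc: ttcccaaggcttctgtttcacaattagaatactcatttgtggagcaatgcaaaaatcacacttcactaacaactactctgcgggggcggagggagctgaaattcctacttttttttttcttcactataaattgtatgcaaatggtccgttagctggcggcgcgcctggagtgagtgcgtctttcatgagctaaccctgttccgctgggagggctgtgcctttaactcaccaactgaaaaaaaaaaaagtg
For 8 of the 10 genes a promoter sequence was at hand, and Fn1 and Thbs1 were not among them. Both strands of these 250 bases were searched for CTTTGA, the core bound by TCF/LEF, the DNA-binding partners of β-catenin. GGAATG, the core bound by TEAD factors, was searched as well, as was TGANTCA, a loose form of the AP-1 site in which N is any base. CTTTGA was found in 1 of the 8 windows, that of Fbln2, 239 bases before the start site, and in 13.8% of the 32851 windows of all genes. The stretch around it (chr6:91212514-91212543, plus strand), with the match in capitals, reads as follows. The deposited table starts Fbln2 309 bases before the RefSeq start site, so by its coordinates this window lies inside the gene.
Fbln2: tccctgggcagCTTTGAgcctgggtacctc
TGANTCA was found in 1 of 8 windows, as TGAATCA in that of Efemp1 154 bases before the start site, and in 6.75% of all windows, and GGAATG in 0 of 8 and in 12.6% of all windows. The 3 longer runs hold none of these motifs.

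Parental KMF cells were compared with FAK KO cells last, since the clone also differs from its parents in other ways. Of the 8 genes, 3 were called higher in KMF cells, where 3.97% of all 11893 genes tested were called higher and 4.04% lower. Fbln1 was 9.56-fold higher (log2 3.26, standard error 0.08, adjusted p = 9.10e-08), Thbs1 3.27-fold (log2 1.71, standard error 0.09, adjusted p = 2.97e-06) and Fbln2 3.23-fold (log2 1.69, standard error 0.08, adjusted p = 1.64e-06 from limma). At any fold 6 of 8 were higher, against 23.1% of all genes (28.7% lower). Spp1 and Tnc were higher by 0.61 and 0.60 on the log2 scale (adjusted p = 0.0104 and 0.00269), and Fn1 by 0.35 (standard error 0.11, adjusted p = 0.0226 from limma). Fn1 no longer passed without FAK KO replicate 3 or KMF replicate 2 (adjusted p = 0.075 and 0.0679), in 1 fit of all 5 lines (adjusted p = 0.160) or with each chromosome centred (log2 0.15, adjusted p = 0.289 from limma). Efemp1 was 0.25 lower on that scale in KMF cells, with a log2 interval from -0.46 to -0.04 and an adjusted p of 0.0507 from limma, and passed as lower without FAK KO replicate 2 (-0.35, adjusted p = 0.00803). The log2 fold change of Sparc was 0.06 (95% interval -0.10 to 0.23). The median over the 8 genes was 0.61, and over all genes -0.05. Of the fibroblast markers, Col3a1 (log2 2.61) and Pdgfra (log2 1.55) were called higher in KMF cells and Dcn lower (log2 -1.57), while Col1a1 passed at any fold (log2 0.87). Of the other markers none was called, but Upk3b (log2 0.98), Tek (log2 0.72), Krt18 (log2 0.64) and Cd14 (log2 0.27) passed as higher and Krt19 as lower (log2 -0.22).

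The same 3 genes stood at unequal distances between KMF and FAK-WT cells. Fbln2 did not differ between KMF and FAK-WT cells beyond its spread (log2 0.26, 95% interval -0.22 to 0.73), and Thbs1 was 1.45-fold higher in KMF cells (log2 0.53, standard error 0.09, adjusted p = 0.00356 from limma). Fbln1 remained 4.23-fold higher in KMF than in FAK-WT cells (log2 2.08, standard error 0.07, adjusted p = 8.64e-06 from limma) and 6.39-fold higher than in FAK-R454 cells (log2 2.68, adjusted p = 1.09e-05 from limma). Fbln1 lies on chromosome 15, as does Ptk2. The median log2 fold change of the 479 genes tested on that chromosome was 0.30 in FAK-WT over FAK KO cells, against -0.08 over all genes. With every chromosome centred on its own median, Fbln1 stayed higher in FAK-WT, β-catenin ΔGSK and KMF than in FAK KO cells, by 0.87 (now under 2-fold), 1.52 and 3.19 on the log2 scale, but the log2 fold change in FAK-R454 over FAK KO cells became 0.42 (adjusted p = 0.0796 from limma) and that between FAK-WT and FAK-R454 cells 0.44 (adjusted p = 0.0931 from limma).

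The genes whose pattern over the 14 samples was nearest to each of these genes were found by the root-mean-square distance between log2(FPKM + 0.1) values, each gene centred on its mean, among the 12256 genes with a mean above 1 FPKM in some line. The gene nearest to Fn1 was Tnc (distance 0.278), followed by Gabre (0.337), and those nearest to Tnc were Gpr124 (0.264) and Aebp1 (0.277). For Thbs1 they were Mylk (0.305) and Hoxc9 (0.313), for Fbln2 Ncam1 (0.278) and Fzd9 (0.309), and for Fbln1 Ly6e (0.239) and Fhl2 (0.251). For Spp1 they were Klra4 (0.255) and Cmklr1 (0.265), for Efemp1 Lhfpl2 (0.107) and Tmem43 (0.115), and for Sparc Zfp523 (0.0544) and Cd151 (0.0604). A small distance comes easily to a gene that moves little, as the last 2 do. Among the genes of the family itself, the closest pairs were Sparc with Efemp1 (0.25), Fn1 with Tnc (0.278) and Thbs1 with Fbln2 (0.396), and the farthest was Fbln1 with Spp1 (2.07).

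Genes that work with this family were taken from 3 fixed lists: 31 related matricellular and matrix glycoproteins, 17 genes of elastic fibres and their cross-linking, and 14 receptors for these proteins. Beyond the 3 largest rises and falls of each comparison, the genes named from them were chosen after their values were seen. A gene that exceeds 1 FPKM in only 1 of the lines compared entered through the line in which it is high. This holds for 12 of the 40 calls in these lists over the 5 comparisons, namely every call of Nov, Wisp2, Eln and Fbn1, that of Hmcn1 in KMF cells, that of Emilin1 in β-catenin ΔGSK cells and those of Cd36 in both of these lines, and the counts of calls are given as a description. FAK-WT was compared with FAK KO cells for 12 of the related glycoproteins. Of these, 2 were called higher (2.91% of all genes), Ctgf (connective tissue growth factor, log2 1.13, adjusted p = 0.00787) and Nov (log2 1.06, adjusted p = 0.00541 from limma). At any fold 7 were higher, against 15.6% of all genes (25.2% lower), and the median was 0.42. Ctgf fell under 2-fold without FAK KO replicate 3 (log2 0.93) or FAK-WT replicate 3 (log2 0.87). In FAK-R454 cells 2 of 13 were called higher (1.93% of all genes), Wisp2 (log2 2.03, adjusted p = 0.0078) and Ctgf (log2 1.13, adjusted p = 0.00484 from limma), with a median of 0.18. Ctgf was again under 2-fold without FAK KO replicate 3 (log2 0.93). Wisp2 had an adjusted p of 0.0664 from limma without FAK-R454 replicate 2 and did not reach the filter without replicate 1. In β-catenin ΔGSK cells 2 of 11 were called higher and 3 lower (5.13% and 6.99% of all genes), with a median of -0.12. Fst, which encodes the activin antagonist follistatin, went from 1.76 ± 0.240 to 19.8 ± 3.94 FPKM (SD, n = 3 each; log2 3.40, adjusted p = 5.49e-07). Mgp, the matrix Gla protein that inhibits calcification, went from 89.8 ± 7.44 to 1.12 ± 0.124 FPKM (SD, n = 3 each; log2 -6.20, adjusted p = 1.32e-09 from limma). Hmcn1 was called higher there (log2 1.22), and Ctgf and Fstl1 lower (log2 -1.19 and -1.07, the latter -0.97 without FAK KO replicate 1). In KMF cells 1 of 11 was called, against 4.04% of all genes called lower: Hmcn1, which was lower (log2 -2.38, adjusted p = 3.31e-05 from limma). The count was 3 without FAK KO replicate 1 or KMF replicate 2 and 2 without FAK KO replicate 2, the additional genes being higher. In these 3 settings 3.82%, 3.88% and 4.10% of all genes were called higher. Between FAK-WT and FAK-R454 cells 2 of 14 were called higher (0.696% of all genes), Nov (log2 1.66, adjusted p = 0.016) and Fst (log2 1.12, adjusted p = 0.0158 from limma). None was called without either FAK-R454 library, where only 7 or 8 of all genes were called at all, or without FAK-WT replicate 2 (0.687% of all genes called in either direction). There was 1 without FAK-WT replicate 1 (1.13% of all genes) and 3 without FAK-WT replicate 3 (1.87% of all genes, against 1.44% with every sample).

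Fibulins bind several products of the elastic-fibre genes. Against FAK KO cells, FAK-WT cells had 3 of 10 of these genes called higher (2.91% of all genes): Emilin2 (log2 2.42, adjusted p = 4.57e-06), Emilin1 (log2 1.45, adjusted p = 3.79e-05) and the cross-linking enzyme gene Loxl2 (log2 1.20, adjusted p = 0.0367 from limma). The median was 0.66. Loxl2 rested on the third FAK-WT library, without which it was under 2-fold (log2 0.70, adjusted p = 0.0308 from limma), and without any 1 FAK KO sample its adjusted p from limma ran from 0.0521 to 0.119. In FAK-R454 cells 6 of 11 were called higher (1.93% of all genes), with a median of 1.04, led by Eln, which encodes elastin (from 0.390 ± 0.0930 FPKM with FAK KO to 4.16 ± 0.304 FPKM with FAK-R454, SD, n = 3 and 2; log2 3.14, adjusted p = 1.34e-04 from limma). Lysyl oxidase, Lox, had a log2 fold change of 1.67 there (adjusted p = 0.00684, and 0.0555 without FAK-R454 replicate 2), and Emilin2 of 1.34 (adjusted p = 3.35e-04 from limma). Between the re-expressing lines, Eln was lower in FAK-WT cells at a log2 of -2.27 (adjusted p = 0.0041 from limma), and Emilin2 higher, at 1.08 (adjusted p = 0.00318 from limma). They were the 2 genes called of the 11 tested in that comparison, where 0.696% of all genes were called higher and 0.747% lower. Without either FAK-R454 library none was called, with an adjusted p from limma between 0.0855 and 0.0992 for both, and 4 were called without FAK-WT replicate 3 (1.87% of all genes in either direction). Upk3b was also called lower in FAK-WT cells (log2 -2.09, adjusted p = 0.0041 from limma), and had an adjusted p of 0.0967 or 0.0992 without a FAK-R454 library, whereas Krt18 (log2 0.64), Krt8 (log2 0.62), Msln (log2 0.38) and Krt19 (log2 0.35) passed as higher and the median of the 6 markers was 0.37. In β-catenin ΔGSK cells 3 of 11 were called higher, Emilin2 (log2 2.93), Eln (log2 2.31) and Loxl2 (log2 1.57), and 3 lower, Emilin1 (log2 -1.91), Loxl3 (log2 -1.12) and Lox (log2 -1.03), with a median of -0.08, where 5.13% and 6.99% of all genes were called higher and lower. Loxl3 was just under 2-fold without β-catenin ΔGSK replicate 1 (log2 -0.995). Lox had an adjusted p between 0.0669 and 0.0839 from limma without FAK KO replicate 1 or 2 or β-catenin ΔGSK replicate 3. In KMF cells 4 of 12 were called higher, led by Fbn1 (log2 2.08), which encodes fibrillin 1, and Emilin2 (log2 1.88), and 2 lower, Emilin1 (log2 -1.32) and Loxl3 (log2 -1.05, and -0.96 without KMF replicate 1), with a median of 0.68, where 3.97% and 4.04% of all genes were called higher and lower.

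Of 10 receptors tested, 1 was called with FAK-WT against FAK KO (where 1.71% of all genes were called lower), Cd36, a thrombospondin receptor, which was lower (log2 -1.40, adjusted p = 2.61e-04 from limma). A receptor called higher joined it without FAK KO replicate 2 or FAK-WT replicate 1 or 2, where 3.01%, 3.25% and 2.94% of all genes were called higher. Itga5, the α subunit of the main fibronectin receptor, was 32.0 ± 1.67 FPKM in FAK KO, 64.0 ± 4.36 FPKM in FAK-WT and 58.7 ± 2.10 FPKM in the FAK-R454 line (SD, n = 3, 3 and 2). The log2 fold changes of 0.998 and 0.87 passed at any fold (adjusted p = 6.22e-05 and 1.95e-04 from limma) but were under 2-fold with every sample included. Itga5 was 28.5 FPKM in KMF and 23.7 FPKM in β-catenin ΔGSK cells. Its log2 fold changes over FAK KO there were -0.16 (adjusted p = 0.0598) and -0.43 (adjusted p = 0.00171 from limma). In β-catenin ΔGSK cells 2 of 10 were called, both lower (6.99% of all genes). Cd36 was 0.0535 ± 0.00818 FPKM against 17.8 ± 3.61 FPKM in FAK KO cells (SD, n = 3 each; log2 -6.85, adjusted p = 1.51e-08), and Itgb8 had a log2 fold change of -1.75 (adjusted p = 1.07e-05 from limma). At any fold 7 of the 10 receptors were lower there (34.4% of all genes) and 1, the osteopontin and hyaluronan receptor Cd44, was higher (log2 0.97), beside 23.7% of all genes. In KMF cells 2 of 10 were called lower (4.04% of all genes), Cd36 (log2 -6.38) and Itgb8 (log2 -1.38). The median of the receptors was -0.11 in FAK-WT, 0.01 in FAK-R454, -0.52 in β-catenin ΔGSK and -0.25 in KMF over FAK KO cells.

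**Figure D3:**
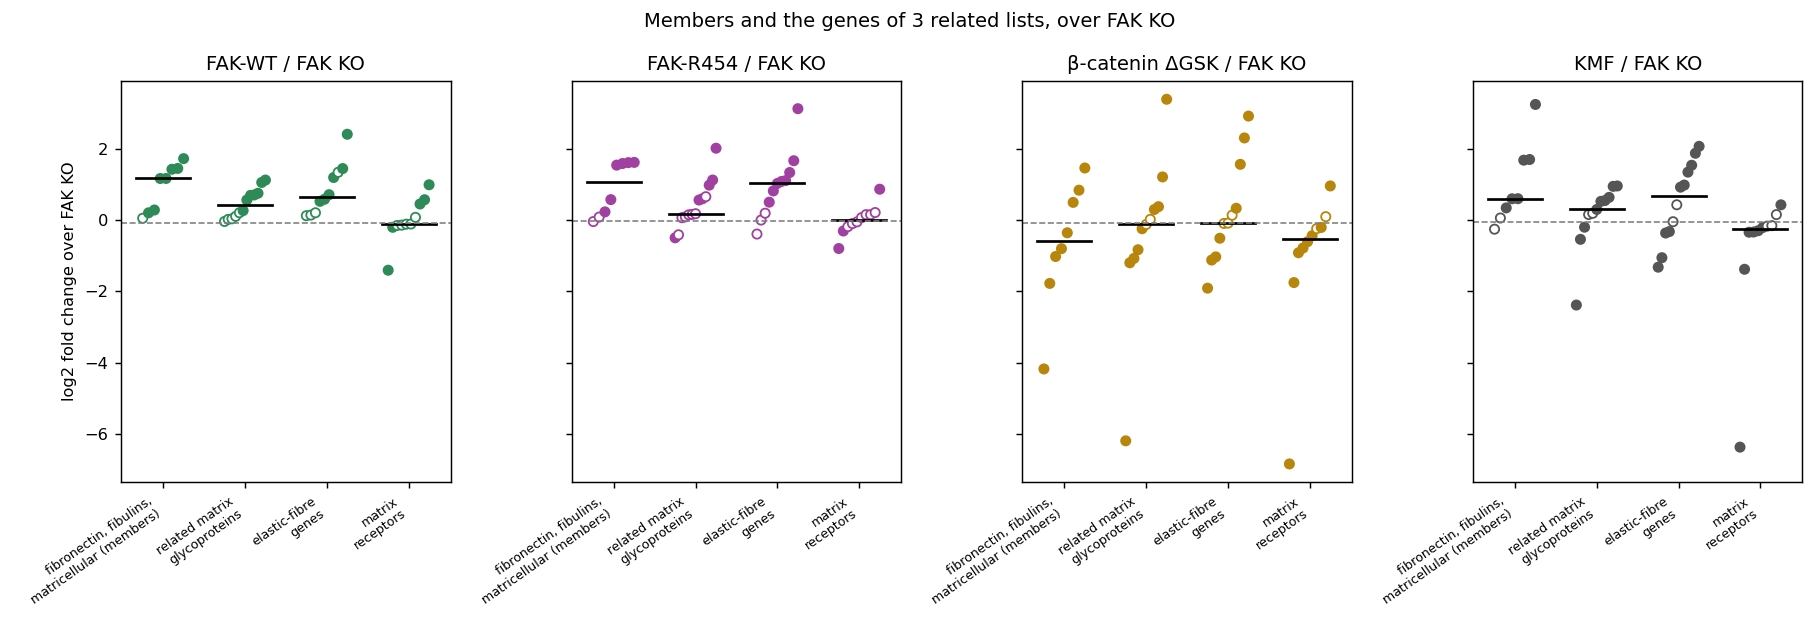
Log2 fold change over FAK KO cells (y axis) of each tested gene in the family and in the 3 related lists, 1 panel per line; filled points pass an adjusted p of 0.05, short black lines are list medians and the dashed line is the median of all genes tested. The family's median is 1.18 in FAK-WT and 1.07 in FAK-R454 cells and -0.58 in β-catenin ΔGSK cells, where Spp1, Mgp and Cd36 lie lowest in their columns.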

How the data were processed

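Poly(A) RNA of 14 tumorsphere samples was sequenced in paired-end libraries. The authors deposited FPKM for 35275 genes, made per the paper's methods with TopHat2, while the submitters' processing notes name CASAVA 1.8, STAR 2.5, DESeq2 and the build mm10. The FPKM were used as deposited. FPKM times gene length gave whole fragments for 100% of the values (tolerance 0.01), and 25390558 to 35289859 fragments per library (median 28720224).

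Lines were compared 2 at a time with limma 3.58.1 (R 4.3.3) on log2(FPKM + 0.1), with a trended prior variance, on genes with a mean above 1 FPKM in at least 1 of them, and p-values were adjusted (Benjamini-Hochberg) over all genes tested. The procedure was tested on simulated data with the same setting for spread in every library. That test does not cover an outlying library such as the third of FAK-WT. The 10 genes and all lists were chosen with earlier results of these data known. Named were all 10 genes, Ptk2 and Ctnnb1, the 2 genes nearest in pattern to each, and from all lists, markers included, the 3 called genes with the largest rise and the largest fall per comparison. Other list genes were named after their values were seen. The study calls the KMF samples independent and the others replicates, so p-values measure only the spread between samples, which may be technical. The third FAK-R454 sample that the methods describe was not analysed here. Alternatives covered the pseudocount, filter, fold threshold, scaling, variance model, replicate block, limma-voom on recovered fragments, chromosome centring and each sample left out. Promoter sequences are from RefSeq (GRCm38.p6), and coordinates are those of the deposited table, which equal GENCODE gene bounds on GRCm38 for 8 of the 10 genes.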

Additional observations from a re-analysis of the deposited data

How the results depend on the processing

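All 16 log2 fold changes called within the family of 10 genes kept their direction and an adjusted p under 0.05 in every alternative in which they were tested. A pseudocount of 1 left 3 genes of the family 2-fold higher in FAK-WT over FAK KO cells in place of 5. Thbs1 was then at 0.96 and Fbln1 at 0.91 on the log2 scale. The share of all genes called higher was 1.47% with that pseudocount, against 2.91% with one of 0.1. The fall of Thbs1 in β-catenin ΔGSK cells came under 2-fold with a pseudocount of 1 (-0.69), with each chromosome centred (-0.96) and with median-of-ratios scaling (-0.92). It was also under 2-fold without FAK KO replicate 2 or β-catenin ΔGSK replicate 1 (-0.98 and -0.92). Over all 40 log2 fold changes of the family, 578 values from alternatives comprised 509 on the same side of the threshold, 43 that lost it, 11 that gained it and 15 of the opposite sign, and none of the 15 belonged to a gene that passed in that comparison. With a log2 threshold of 0.5 in place of 1, 7 genes were called in β-catenin ΔGSK over FAK KO cells, 5 in KMF over FAK KO and 1 in FAK-WT over FAK-R454, beside 32.5%, 23.3% and 3.76% of all genes. With no fold threshold these counts were 8, 6 and 2, beside 58.1%, 51.8% and 7.82%. The 16 differing steps in the orders of lines ranged from 13 to 21. The log2 fold change of Sparc between FAK-WT and FAK-R454 cells turned to 0.014 with median-of-ratios scaling and to 0.052 with each chromosome centred. Centring also turned Spp1 in FAK-R454 over FAK KO to 0.091 and Fbln2 in FAK-WT over FAK-R454 to 0.0072. The causes were not tested. With 1 sample left out, the log2 fold change ranged from -0.12 to 0.077 for Spp1 and from -0.0055 to 0.19 for Efemp1 in FAK-R454 over FAK KO, and from -0.12 to 0.18 for Spp1 in FAK-WT over FAK KO. Between FAK-WT and FAK-R454 it ranged from -0.093 to 0.35 for Fn1, from -0.051 to 0.0076 for Sparc, from -0.42 to 0.01008 for Fbln2 and from -0.086 to 0.21 for Spp1. Where 1 FAK-R454 sample remained, it was assumed to vary like the samples of the other line. Of 249 list counts recomputed under alternatives, other fold thresholds included, 62 moved by more than 1.5 times or between 0 and another number. Fbln5 and Postn could be tested only without the filter.

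Samples were not paired by replicate number in the main fits. Across genes, samples of like number in 2 lines, each taken as the difference from the mean of its line, correlated between -0.234 and 0.409. For FAK KO and β-catenin ΔGSK cells every such correlation was positive (0.409, 0.242 and 0.078). Correlations of this size do not settle whether samples were paired. Of the 6 samples of each comparison with 3 pairs, 4 in β-catenin ΔGSK and FAK KO, 1 in KMF and FAK KO and 0 in FAK-WT and FAK KO correlated best with their own number. With the replicate number as a block, the counts of genes called in the family were 5, 4, 4, 3 and 0 in the order of the comparisons with FAK-WT, FAK-R454, β-catenin ΔGSK and KMF over FAK KO and FAK-WT over FAK-R454, where 4.66%, 2.78%, 12.1%, 8.06% and 1.88% of all genes were called. In the last, the block uses replicates 1 and 2 only, and Fbln2 had a log2 fold change of -0.42 (adjusted p = 1.76e-04 from limma), Tnc of -0.25 (adjusted p = 0.0263), Fn1 of -0.093, Sparc of 0.0076 and Spp1 of -0.086. Under the block Efemp1 passed in FAK-WT over FAK-R454 (0.17, adjusted p = 0.0183) and in KMF over FAK KO (-0.25, adjusted p = 0.0459), and Sparc no longer passed over FAK KO in FAK-WT (adjusted p = 0.0951) and FAK-R454 cells (adjusted p = 0.251 from limma).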
